A study of Rattus norvegicus with 45 samples.

Results

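Calcium-dependent protein kinases were followed here through 9 of the 14218 rat genes that the array names. Camk2a, Camk2b, Camk2d and Camk2g encode the alpha, beta, delta and gamma subunits of calcium/calmodulin-dependent kinase II (CaMKII). Camk4 and Camkk2 encode CaMKIV and the kinase that switches it on. Prkca, Prkcb and Prkce encode the alpha, beta and epsilon forms of protein kinase C (PKC). Members were chosen by name: every probe set of the Affymetrix rat genome array whose platform symbol is one of the 9 genes was taken, which gave 20 of 31099 probe sets. Of the 20, 19 passed the filter on low values and were tested among 18609 probe sets. The other one, Camk2d 1368833_at, had a mean of 5.17 on the log2 scale over all arrays, below the limit of 5.88, and is given as values only.

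The arrays came from 15 male Sprague-Dawley rats that had no disease model or transgene. Subcutaneous osmotic minipumps were implanted at 9 to 11 weeks of age and ran for 21 days. In 5 rats the pump released vehicle (dilute acetic acid in water), in 5 rats haloperidol at 0.25 mg/kg/d, a blocker of dopamine D2 receptors, and in 5 rats risperidone at 5 mg/kg/d, which blocks receptors of serotonin and of dopamine. From every rat the frontal cortex, the hippocampus and the striatum were taken, so the 45 arrays form 9 groups of region and treatment with 5 rats each. The tissue field of the labels names the mouse, while the organism and strain are given as rat, and the array is a rat array. Each drug was given at a single dose and time, and both drugs are compared with the same 5 vehicle rats.

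CaMKII is a holoenzyme of alpha, beta, delta and gamma subunits that is activated by calcium-loaded calmodulin, and the alpha and beta subunits are among the most abundant proteins of excitatory synapses, where the kinase is needed for long-term potentiation. CaMKIV works mainly in the cell nucleus, where it phosphorylates the transcription factor CREB after it has itself been phosphorylated by a CaMK kinase such as CaMKK2, which also acts on AMP-activated kinase. The conventional PKC forms alpha and beta respond to calcium and diacylglycerol, and the epsilon form to diacylglycerol without calcium, downstream of receptors that couple to Gq and phospholipase C.

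Promoter sequences from RefSeq (rat build GRCr8) were found for 7 of the 9 genes. The 250 bases before the annotated start of 3 of them are shown because the results below turn on these genes and because their promoters differ in base composition: Camk4, which was lower in striatum after risperidone, and Camk2a and Camk2d, subunits of 1 enzyme with unlike regional patterns. Capitals mark the GC box (GGGCGG, or CCGCCC on the other strand) and the half-site of the cyclic AMP response element (TGACG, or CGTCA on the other strand).
Camk4, chr18:24856902-24857151, plus strand: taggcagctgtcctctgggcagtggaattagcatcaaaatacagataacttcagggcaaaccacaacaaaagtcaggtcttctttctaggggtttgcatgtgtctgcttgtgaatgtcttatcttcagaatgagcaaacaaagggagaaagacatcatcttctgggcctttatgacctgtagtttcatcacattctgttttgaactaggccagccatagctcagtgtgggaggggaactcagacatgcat
Camk2a, chr18:56648930-56649179, plus strand: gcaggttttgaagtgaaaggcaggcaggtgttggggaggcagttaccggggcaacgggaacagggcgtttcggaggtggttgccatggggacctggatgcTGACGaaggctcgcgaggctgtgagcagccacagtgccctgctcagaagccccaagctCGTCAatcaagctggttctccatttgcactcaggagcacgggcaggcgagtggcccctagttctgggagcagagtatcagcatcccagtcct
Camk2d, chr2:217698301-217698550, plus strand: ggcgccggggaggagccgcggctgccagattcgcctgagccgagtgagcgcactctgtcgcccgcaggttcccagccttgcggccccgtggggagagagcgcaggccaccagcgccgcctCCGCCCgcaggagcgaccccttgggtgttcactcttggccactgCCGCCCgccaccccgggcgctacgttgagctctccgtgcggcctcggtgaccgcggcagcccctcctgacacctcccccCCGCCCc
Camk4 held neither motif and had a GC content of 44.4%, at the 25.2 percentile of 33469 rat promoters. Camk2a held no GC box and 2 half-sites, and Camk2d held 3 GC boxes and no half-site, with GC contents of 60.4% and 75.2%. Camk2b, Camk2g, Prkca and Prkce held 5, 7, 2 and 1 GC boxes and no half-site. Of all rat promoters of this length, 30.5% hold a GC box and 18.2% a half-site, and a match is a run of letters, not a shown binding site. The full element TGACGTCA, which contains the half-site on both strands, is in 1.59% of all promoters and in none of the 7.

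Levels are log2 of the deposited intensity, which has no read depth, so the number of rats sets the precision. The median of an array was 6.74 to 6.79 in hippocampus, against 6.49 to 6.54 in frontal cortex and 6.46 to 6.52 in striatum, so region differences are given after each array was centred on its median, with the deposited scale named where it changes a call. The labelled regions carried their markers: the mean of 16 striatal projection neuron genes was 10.38 to 11.53 in striatum and at most 8.56 elsewhere, and that of 13 pyramidal neuron genes was 6.19 to 8.39 in striatum and at least 9.34 elsewhere. Some arrays were high in markers of neighbouring tissue. An array stood apart if its marker mean was more than 3 median absolute deviations above the median of its region. This held for 3 arrays of frontal cortex and 1 of striatum. In frontal cortex, the mean of 15 olfactory bulb and neuroblast genes was 7.75 in haloperidol rat 5, 8.77 in risperidone rat 2 and 8.36 in risperidone rat 5, against 6.63 to 6.77 in the vehicle rats, with 14, 13 and 13 of the 15 genes above every vehicle array. In striatum, the mean of the 13 pyramidal neuron genes was 8.39 in risperidone rat 3, 7.50 in haloperidol rat 5, 7.29 in haloperidol rat 3 and 7.11 in risperidone rat 5, against 6.19 to 6.68 in the vehicle rats. In that order, 13, 12, 12 and 9 of the 13 genes lay above every vehicle array. Of the striatal arrays just named, only risperidone rat 3 stood apart (4.70 deviations, against 2.31, 1.76 and 1.30). In hippocampus, no array passed the limit of 3 median absolute deviations for choroid plexus and meningeal genes.

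In vehicle rats the 4 CaMKII subunits had 4 different regional patterns. Camk2a and Camk2g were low in striatum, Camk2d was high in frontal cortex alone, and Camk2b was lowest in frontal cortex. These are bulk tissue values, in which fewer cells of a type and less RNA per cell cannot be told apart. Camk2a 1388187_at stood at 11.07, 11.48, 11.39, 11.44 and 11.66 in frontal cortex, at 11.24, 11.44, 11.39, 11.72 and 12.02 in hippocampus, and at 9.98, 10.22, 9.89, 10.32 and 10.72 in striatum of vehicle rats 1 to 5. Striatum lay below both other regions in every rat, while frontal cortex and hippocampus overlapped. With arrays centred, striatum was lower than frontal cortex by -1.17 ± 0.15 (log2 difference ± SE; adjusted p = 3.83e-09), and hippocampus differed from frontal cortex by -0.11, with a 95% interval of -0.41 to 0.19. That last difference had the opposite sign on the deposited scale (0.15) and passed no test on either.

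The other Camk2a probe sets were lower in striatum than in frontal cortex by -1.01 (1368935_at) and -0.46 (1389824_at), and 1381637_at did not pass (-0.22, adjusted p = 0.26). Camk2b, whose beta subunit tethers the enzyme to actin, was higher than in frontal cortex in hippocampus (0.70 ± 0.07 for 1398251_a_at and 0.60 ± 0.07 for 1375575_at) and in striatum (0.46 ± 0.07 and 0.47 ± 0.07). Camk2d 1368834_at was 10.54 to 10.86 in frontal cortex of the vehicle rats, 8.96 to 9.42 in striatum, and 10.37, 8.91, 9.10, 9.25 and 9.42 in hippocampus. Vehicle rat 1 was thus near the cortical range in hippocampus and the other 4 near the striatal range. The centred difference from frontal cortex was -1.51 ± 0.21 in hippocampus and -1.53 ± 0.21 in striatum, and striatum and hippocampus did not differ beyond their spread (-0.02, 95% interval -0.45 to 0.41). Camk2d 1371263_a_at gave -1.50 and -1.65 for the same differences from frontal cortex. The dim Camk2d 1368833_at, not tested, was also highest in frontal cortex, with centred means of -1.03 in frontal cortex, -1.81 in hippocampus and -1.74 in striatum (log2 relative to the array median).

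Camk2g 1369993_at fell in steps from frontal cortex (10.30 to 10.43) over hippocampus (9.87 to 10.09) to striatum (8.57 to 8.71), with no overlap between regions, and the striatal difference from frontal cortex was -1.72 ± 0.11 (adjusted p = 4.41e-17). The second Camk2g probe set, 1381936_at, did not share this pattern: its centred differences from frontal cortex were -0.31 in hippocampus and -0.21 in striatum, and only the first was called, since the second was under 1.2-fold. Over all 45 arrays the Camk2g probe sets correlated at r = 0.47, against 0.99 for the pair of Camk2b and 0.97 for the tested pair of Camk2d. The probe sets of one symbol can read different transcripts or transcript ends, which these files do not resolve.

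The CaMKIV cascade had its own order. Camk4 1369753_at was 8.89, 9.07, 9.15, 9.34 and 8.85 in striatum of the vehicle rats, 8.62, 8.30, 8.38, 8.44 and 8.29 in frontal cortex, and 7.93, 7.88, 8.27, 7.82 and 7.55 in hippocampus. The striatal values were all above the cortical ones, and the cortical ones all above the hippocampal ones. The centred differences from frontal cortex were 0.66 ± 0.13 in striatum and -0.78 ± 0.13 in hippocampus, and those of 1369752_a_at were 0.32 ± 0.10 and -0.91 ± 0.10, all called. On the deposited scale the striatal call of 1369752_a_at (0.31) was lost without vehicle rat 4 (0.25), which is under 1.2-fold. Camkk2, whose product activates CaMKIV, was highest in frontal cortex by both probe sets: hippocampus was lower by -0.87 ± 0.17 (1368753_at) and -0.85 ± 0.09 (1375025_at), and striatum by -0.50 ± 0.17 and -0.46 ± 0.09.

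Prkca and Prkce were highest in hippocampus, and Prkcb was lowest there. Prkce 1374593_at stood at 10.99, 11.15, 11.03, 11.02 and 11.13 in hippocampus of the vehicle rats, at 9.97, 9.95, 9.83, 9.85 and 9.78 in frontal cortex, and at 9.47, 9.56, 9.46, 9.60 and 9.68 in striatum, with no overlap between the regions. Its centred difference between striatum and hippocampus was -1.23 ± 0.06 (adjusted p = 1.18e-21). Prkca 1372176_at was higher in hippocampus than in frontal cortex by 0.79 ± 0.10 and lower in striatum by -0.54 ± 0.10. Prkcb 1370585_a_at was lower in hippocampus than in frontal cortex by -0.67 ± 0.06 and did not differ between striatum and frontal cortex beyond its spread (-0.11, 95% interval -0.24 to 0.02). Prkcb 1368240_a_at gave -0.68 in hippocampus and, in striatum, a 95% interval of -0.17 to 0.17, while 1397189_at gave 0.02 in hippocampus and -0.23 in striatum and was called in neither.

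**Figure D1:**
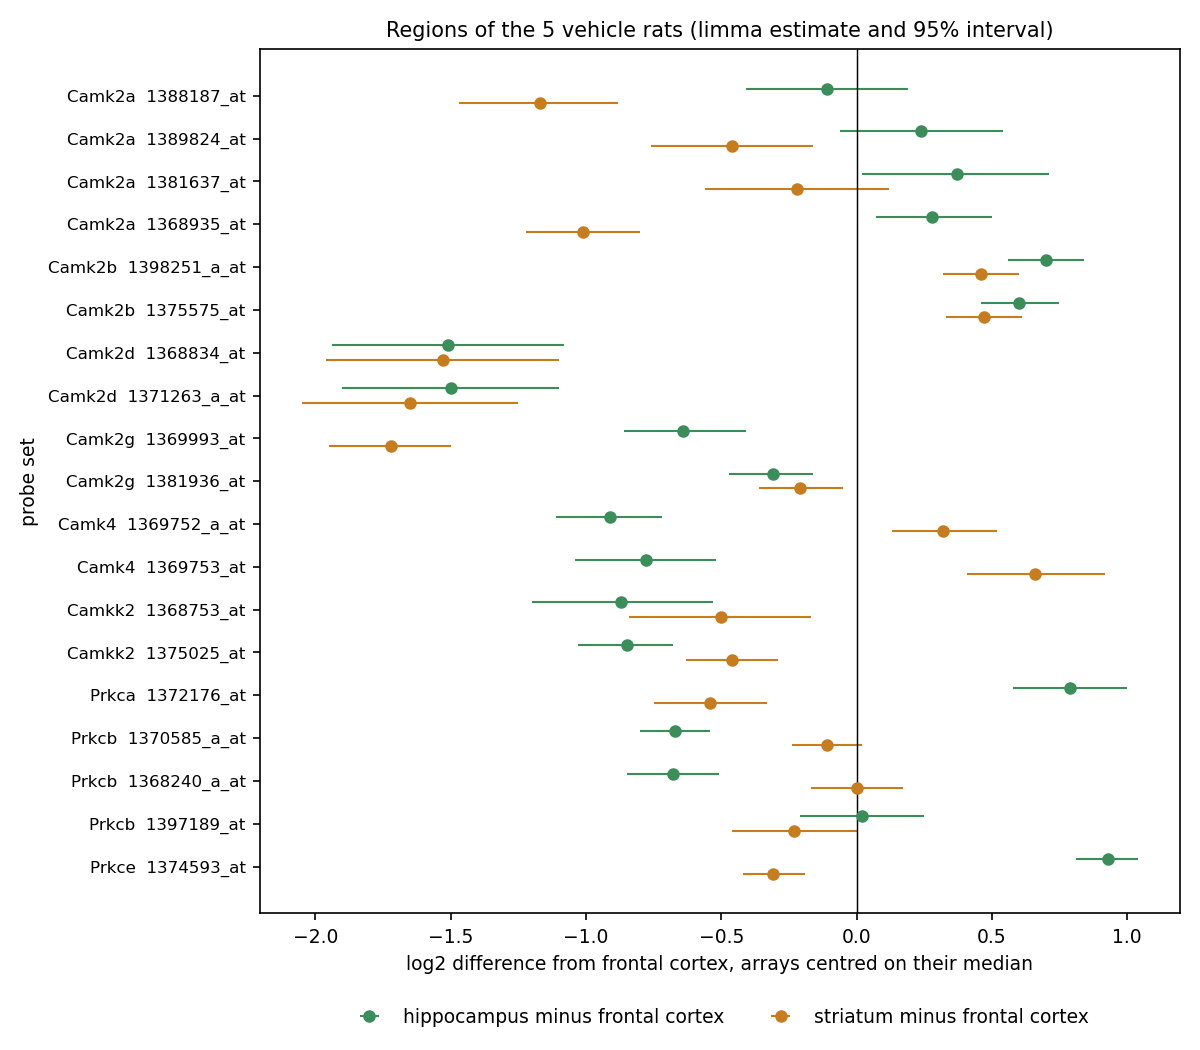
Log2 difference of hippocampus and of striatum from frontal cortex in the 5 vehicle rats for the 19 tested probe sets, after each array was centred on its median; points are limma estimates and lines are 95% intervals. Camk2b lies right of 0 in both regions, Camk2d left of 0 in both, Camk4 right of 0 in striatum and left of 0 in hippocampus, and Prkca and Prkce right of 0 in hippocampus and left of 0 in striatum.

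Many probe sets of the array differ between these regions, and the members' counts are given beside their share. With arrays centred, 14 of 19 member probe sets were called between striatum and frontal cortex, against 45.9% of all probe sets, 15 between hippocampus and frontal cortex, against 31.7%, and 12 between striatum and hippocampus, against 45.9%. On the deposited scale the member counts were 14, 17 and 14, against 46.1%, 53.2% and 62.5% of all. Centring ended the call of Camk2a 1389824_at, Camk2a 1381637_at and Prkcb 1397189_at between hippocampus and frontal cortex, and of both Camk2b probe sets and Prkcb 1397189_at between striatum and hippocampus. It added that of Camk2g 1381936_at in the former and of Camkk2 1375025_at in the latter.

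After risperidone, 2 members fell, each by 2 probe sets and in 1 region: Prkcb in frontal cortex and Camk4 in striatum. Of the 19 member probe sets, 2 were called in frontal cortex, against 3.4% of all probe sets, and 2 in striatum, against 3.65%, where a call needs both a 1.2-fold difference and an adjusted p under 0.05. In hippocampus limma called 0 of 19, against 0.113% of all, with 8 at an unadjusted p under 0.05, which is 42.1% of the members against 16.6% of all probe sets. After haloperidol limma called 0 of 19 in each region, against 0.177% of all in frontal cortex, 0% in hippocampus and 0.339% in striatum, with 0, 1 and 2 at an unadjusted p under 0.05, where all probe sets gave 13.6%, 3.76% and 15.4%. Between risperidone and haloperidol it called 0 of 19 in each region, against 0.768%, 0% and 0.0161%, with 3, 3 and 1 at an unadjusted p under 0.05 (15.8%, 15.8% and 5.26% of the members, against 20.1%, 5.91% and 4.47% of all). The median log2 difference of the 19 probe sets after risperidone was -0.15 in frontal cortex, -0.14 in hippocampus and -0.08 in striatum, beside 0.01, 0.01 and -0.02 over all probe sets tested, and 13, 14 and 12 of the 19 were below 0. After haloperidol the median was -0.13, -0.05 and -0.04 in the same order, beside -0.04, -0.00 and -0.02 over all. There 17, 12 and 13 of the 19 were below 0. The counts of the 2 drugs are not independent, since both use the same 5 vehicle rats. Nor are the 19 probe sets independent, since they read 9 genes. The share of all probe sets below 0 was not taken, so no lean is read from these counts.

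**Figure D2:**
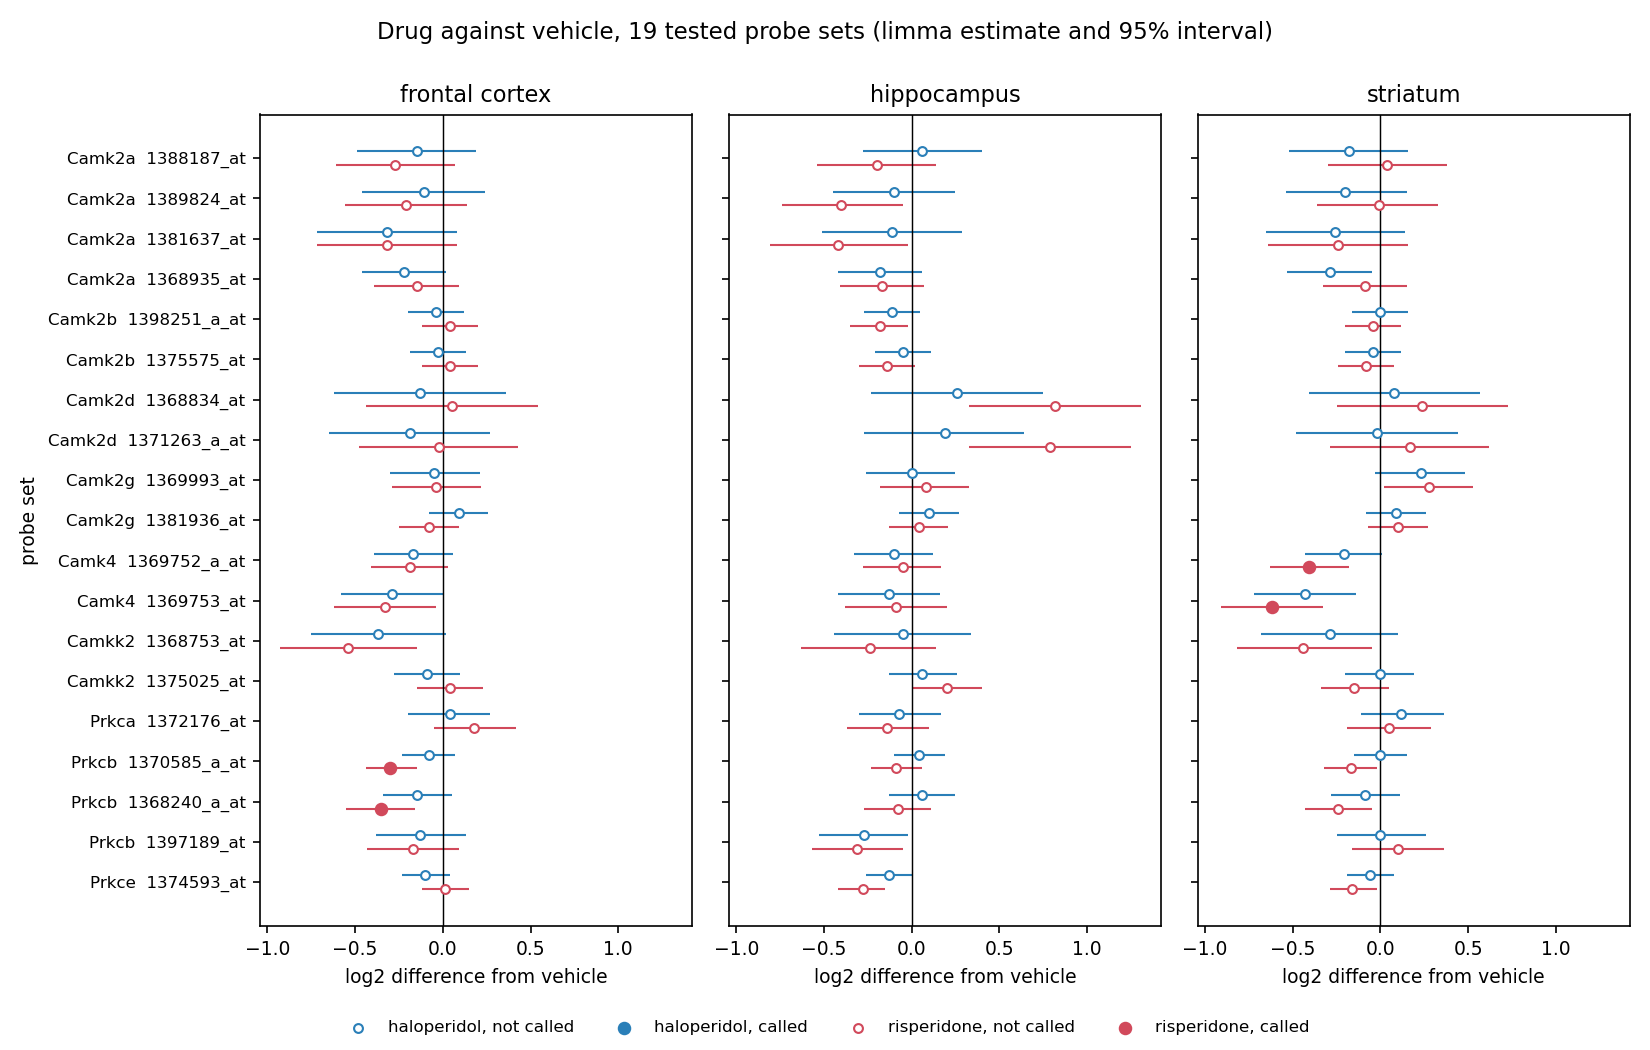
Log2 difference from vehicle after haloperidol and risperidone for the 19 tested probe sets in each region, with 5 rats per group; points are limma estimates, lines are 95% intervals, and filled points were called. The 4 filled points are those of Prkcb after risperidone in frontal cortex and of Camk4 after risperidone in striatum, and the widest intervals are those of Camk2d.

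Prkcb 1370585_a_at stood at 12.58, 12.59, 12.59, 12.55 and 12.55 in frontal cortex of the vehicle rats, at 12.43, 12.51, 12.56, 12.51 and 12.45 after haloperidol, and at 12.43, 11.96, 12.18, 12.44 and 12.37 after risperidone. No risperidone rat reached the vehicle range, rat 2 was the lowest, and 1 haloperidol rat reached the vehicle range. The log2 difference between risperidone and vehicle was -0.30 ± 0.07 (adjusted p = 0.0146), which is 0.815 of the vehicle level. Prkcb 1368240_a_at stood at 10.97, 10.87, 10.96, 10.93 and 10.85 in the vehicle rats, at 10.83, 10.84, 10.69, 10.83 and 10.68 after haloperidol, and at 10.81, 10.30, 10.40, 10.67 and 10.62 after risperidone. Neither drug group overlapped the vehicle rats. Risperidone differed from vehicle by -0.35 ± 0.09 (adjusted p = 0.0233). The third Prkcb probe set, 1397189_at, differed by -0.17, with a 95% interval of -0.43 to 0.09.

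The same 2 Prkcb probe sets were -0.17 and -0.24 from vehicle in striatum (adjusted p = 0.157 and 0.13) and -0.09 and -0.08 in hippocampus after risperidone. The test of the difference between hippocampus and frontal cortex gave 0.21 ± 0.09 and 0.28 ± 0.12 (adjusted p = 0.246 and 0.234), and that between striatum and frontal cortex 0.12 for both (adjusted p = 0.45 and 0.598), so the effects were not shown to differ between regions. After haloperidol the values in frontal cortex were -0.08 and -0.15 (adjusted p = 0.64 and 0.498), and risperidone differed from haloperidol by -0.21 for both (adjusted p = 0.096 and 0.204).

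Prkcb in frontal cortex moved against the olfactory bulb markers named above: over the 15 cortical arrays 1370585_a_at and the marker mean had r = -0.77 and a Spearman rho of -0.85, values that share their arrays and their treatment groups. Without the 4 arrays that stood apart (3 of frontal cortex and 1 of striatum) the differences were -0.21 (adjusted p = 0.0537) and -0.28 (adjusted p = 0.0591), and with the marker means as a covariate -0.17 and -0.22 (adjusted p = 0.282 and 0.277). Leaving out risperidone rat 2 gave -0.22 and -0.29 (adjusted p = 0.0707 and 0.0762). The call of 1368240_a_at was also lost without vehicle rat 1 (-0.34, adjusted p = 0.0585) or vehicle rat 4 (-0.35, adjusted p = 0.053). The marker mean was above every vehicle array in all 5 risperidone rats (6.83, 8.77, 7.11, 6.86 and 8.36), the 3 that did not stand apart included, and its part in the Prkcb difference was not tested.

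Camk4 1369753_at stood at 8.89, 9.07, 9.15, 9.34 and 8.85 in striatum of the vehicle rats, at 8.56, 8.86, 8.46, 8.50 and 8.76 after haloperidol, and at 8.61, 8.99, 7.78, 8.40 and 8.43 after risperidone. Risperidone rat 2 lay within the vehicle range, the other 4 below it, and rat 3 was far below the rest. The log2 difference between risperidone and vehicle was -0.62 ± 0.14 (adjusted p = 0.0089), which is 0.652 of the vehicle level. Camk4 1369752_a_at stood at 8.90, 9.01, 9.13, 9.28 and 8.80 in the vehicle rats and at 8.73, 8.98, 8.31, 8.55 and 8.52 after risperidone, and differed by -0.41 ± 0.11 (adjusted p = 0.0252). After haloperidol the values were -0.43 ± 0.14 and -0.21 ± 0.11 (adjusted p = 0.157 and 0.354), and risperidone and haloperidol differed by -0.19 and -0.20, with 95% intervals of -0.48 to 0.10 and -0.42 to 0.03.

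In frontal cortex Camk4 was -0.33 ± 0.14 and -0.19 ± 0.11 from vehicle after risperidone (adjusted p = 0.159 and 0.306), and in hippocampus -0.09 and -0.05. The tests of the difference between striatum and hippocampus gave -0.53 ± 0.18 and -0.35 ± 0.14 (adjusted p = 0.103 and 0.153), and those between striatum and frontal cortex -0.29 and -0.22 (adjusted p = 0.358 and 0.371). The effects were thus not shown to differ between regions.

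Camk4 in striatum moved against the pyramidal neuron markers, with r = -0.67 and rho = -0.64 between 1369752_a_at and the marker mean over 15 arrays, and risperidone rat 3 was the lowest in Camk4 and the highest in those markers. Without the arrays that stood apart, of which risperidone rat 3 is the only striatal one, the differences were -0.47 (adjusted p = 0.0409) and -0.34 (adjusted p = 0.069) for 1369753_at and 1369752_a_at. With the marker means as a covariate they were -0.44 and -0.28 (adjusted p = 0.128 and 0.214). Leaving out risperidone rat 3 gave -0.45 (adjusted p = 0.0746) for 1369753_at. The call of 1369752_a_at was lost without vehicle rat 2 (-0.41, adjusted p = 0.0556), 3 (-0.38, 0.0616) or 4 (-0.34, 0.0942) and without risperidone rat 3 (-0.33, 0.142) or 5 (-0.38, 0.0517). Both Camk4 calls, and that of Prkcb 1370585_a_at, were also lost when each region was fitted on its own 15 arrays, with the log2 differences unchanged (adjusted p = 0.123, 0.145 and 0.0558).

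**Figure D3:**
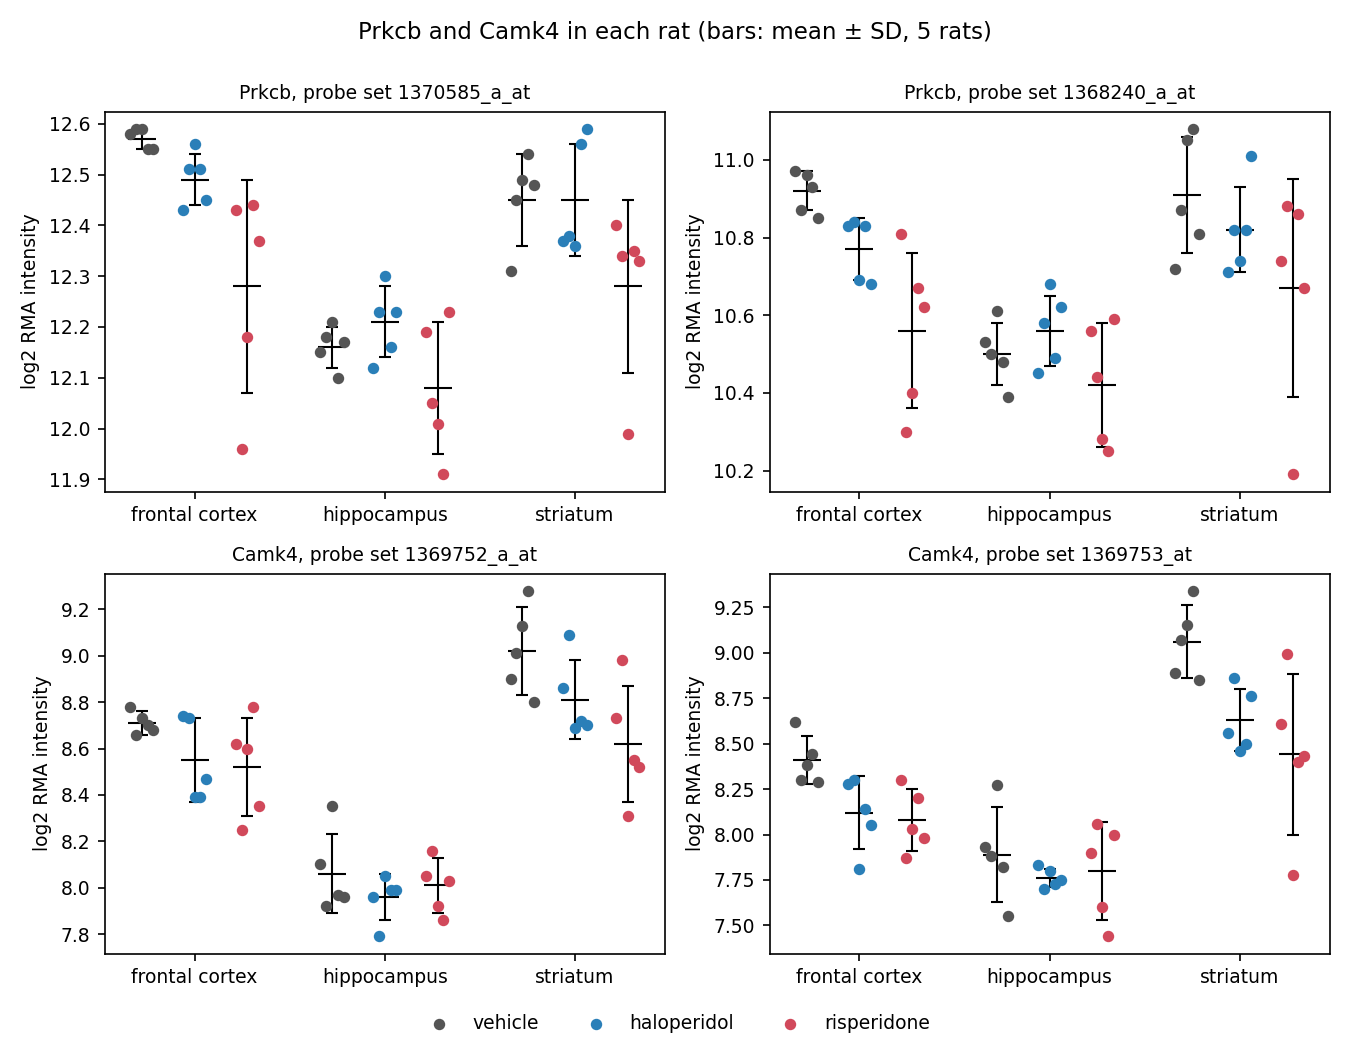
Log2 RMA intensity of the 2 called probe sets of Prkcb and of Camk4 in each rat, by region and treatment; points are rats and bars are the mean ± SD of 5 rats. In frontal cortex every risperidone rat lies below the vehicle rats for both Prkcb probe sets, and every haloperidol rat does for 1368240_a_at. In striatum risperidone rat 3 has the lowest Camk4 values (7.78 and 8.31) while rat 2 (8.99 and 8.98) lies within the vehicle range.

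Among the CaMKII subunits, none was called after either drug. Camk2d in hippocampus had the largest estimate of any member against vehicle, with a wide spread between rats. Camk2d 1368834_at stood at 9.35, 10.92, 10.56, 9.65 and 10.67 in hippocampus after risperidone, at 9.03, 9.37, 10.33, 9.47 and 10.16 after haloperidol, and, as given above, at 8.91 to 10.37 in the vehicle rats. All 3 groups overlapped, and each held rats far apart: vehicle rat 1, haloperidol rats 3 and 5 and risperidone rats 2, 3 and 5 were the high ones. The difference between risperidone and vehicle was 0.82 ± 0.24 (adjusted p = 0.106), and that of 1371263_a_at 0.79 ± 0.23 (adjusted p = 0.098). It passed without vehicle rat 1 (1.06, adjusted p = 0.0278) or without risperidone rat 1 (1.04, adjusted p = 0.0215), and was 0.65 (adjusted p = 0.311) without risperidone rat 2. The difference of the risperidone effect between hippocampus and frontal cortex was 0.77 ± 0.30 (adjusted p = 0.183).

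Camk2d in hippocampus ran with Cux2, a transcription factor of upper-layer neocortical neurons that is among the genes most like Camk2d over all arrays, so that the likeness is a description. Cux2 stood at 7.18, 6.07, 6.10, 6.24 and 6.27 in hippocampus of the vehicle rats, at 6.27, 6.57, 7.11, 6.21 and 7.01 after haloperidol, and at 6.38, 7.49, 7.41, 6.19 and 7.61 after risperidone. The rats high in Camk2d were the rats high in Cux2, and the correlation over the 15 hippocampal arrays was r = 0.96 (rho 0.84). It was r = 0.93 (rho 0.70) in striatum and 0.19 (rho 0.41) in frontal cortex. Tbr1, a marker of deep-layer cortical neurons, had r = 0.70 with Camk2d in hippocampus, and the pyramidal marker Neurod6 had r = -0.71. Both were picked from the 13 pyramidal neuron genes after their values were seen, and they go opposite ways. The mean of all 13 genes in hippocampus was 9.89 to 10.04 in the rats high in Camk2d and 9.97 to 10.15 in the others. The correlation of that mean with Camk2d in hippocampus was not taken. These arrays share 3 treatments, and the part of neighbouring cortex in the Camk2d values was not tested.

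Camk2g 1369993_at in striatum stood at 8.62, 8.60, 8.57, 8.71 and 8.68 in the vehicle rats, at 8.59, 8.65, 9.09, 8.69 and 9.31 after haloperidol, and at 8.57, 8.56, 9.64, 8.71 and 9.09 after risperidone. The 4 high rats, haloperidol 3 and 5 and risperidone 3 and 5, are the 4 with the highest pyramidal neuron markers in striatum, and over the 15 arrays Camk2g and the marker mean had r = 0.95 (rho 0.76). The differences from vehicle were 0.23 ± 0.13 after haloperidol (adjusted p = 0.377) and 0.28 ± 0.13 after risperidone (adjusted p = 0.182). With the marker means as a covariate they were -0.09 and -0.06. Camk2a and Camk2b showed no called difference: the 4 Camk2a probe sets ranged from -0.42 to 0.06 over the 6 comparisons of a drug with vehicle, and the 2 Camk2b probe sets from -0.18 to 0.04.

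**Figure D4:**
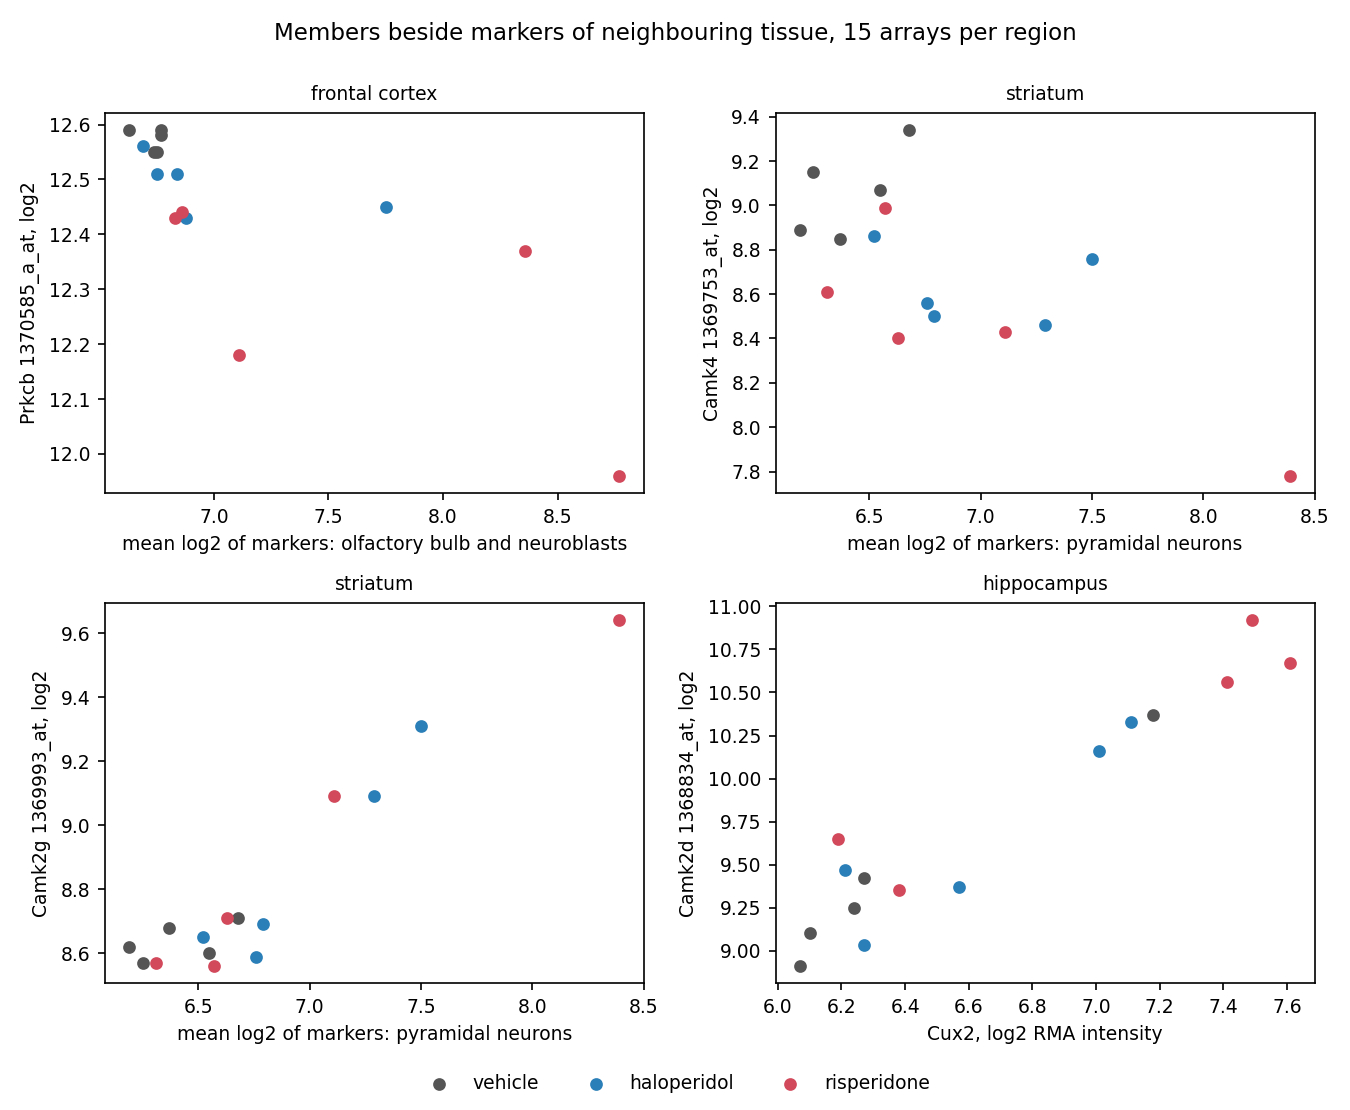
Log2 RMA intensity of a member probe set (vertical axes) against the mean log2 level of a marker list or of Cux2 (horizontal axes), with 1 point per array and 15 arrays per panel, coloured by treatment. Prkcb and Camk4 run downward along their marker means, Camk2g in striatum rises to 9.64 at the highest pyramidal marker mean (8.39), and Camk2d in hippocampus runs upward with Cux2 from 8.91 to 10.92.

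Camkk2 1368753_at had its lowest value of all in frontal cortex of risperidone rat 2. It stood at 7.66, 7.72, 7.57, 7.57 and 7.62 in the vehicle rats, at 7.48, 7.48, 7.39, 6.58 and 7.38 after haloperidol, and at 7.01, 5.77, 7.53, 7.85 and 7.27 after risperidone. All 5 haloperidol rats and 4 of the 5 risperidone rats lay below the vehicle rats. Over the 15 cortical arrays Camkk2 and the olfactory bulb marker mean had r = -0.63 (rho -0.44), and risperidone rat 2 was the array highest in those markers (8.77). The differences were -0.37 ± 0.19 after haloperidol (adjusted p = 0.392) and -0.54 ± 0.19 after risperidone (adjusted p = 0.0807). Without risperidone rat 2 the latter was -0.21 (adjusted p = 0.417), and without risperidone rat 4 it was -0.73 (adjusted p = 0.0171). In striatum the risperidone rats stood at 6.51, 6.36, 6.74, 6.87 and 6.92, all below the vehicle rats at 6.98 to 7.29, with a difference of -0.44 ± 0.19 that did not pass (adjusted p = 0.167). The second Camkk2 probe set, 1375025_at, gave 0.04 in frontal cortex and -0.15 in striatum.

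Prkce was the PKC member nearest to the threshold in hippocampus. Its values after risperidone were 10.97, 10.68, 10.76, 10.72 and 10.76, all below the vehicle values of 10.99 to 11.15, and the difference was -0.28 ± 0.07 (adjusted p = 0.0572). In striatum all 5 risperidone rats (9.28 to 9.46) likewise lay below the vehicle rats (9.46 to 9.68, equal at the second decimal for the nearest), with -0.16 ± 0.07 (adjusted p = 0.157), and in frontal cortex the difference was 0.01. The test of hippocampus against frontal cortex gave -0.30 ± 0.08 (adjusted p = 0.0536). Prkca ranged from -0.14 to 0.18 over the 6 comparisons with vehicle, with a lowest adjusted p of 0.356. Prkcb 1397189_at in hippocampus was below the vehicle range in all 5 risperidone rats, with a difference of -0.31 ± 0.13 (adjusted p = 0.219). The risperidone rats stood at 6.40 to 6.96 and the vehicle rats at 6.96 to 7.18, equal at the second decimal for the nearest. The haloperidol rats stood at 6.53 to 6.97.

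Whether a drug acted differently on 2 regions was tested for all 19 probe sets, and limma called none of them. Here a call needed only an adjusted p under 0.05, with no fold limit. After haloperidol it called 0 of 19 in striatum against frontal cortex, hippocampus against frontal cortex and striatum against hippocampus, against 0.0269%, 0% and 0% of all probe sets, with 0 at an unadjusted p under 0.05 in each, where all probe sets gave 7.41%, 8.4% and 7.36%. After risperidone it called 0 of 19 in each, against 3.58%, 1.47% and 1.81%, with 1, 7 and 5 at an unadjusted p under 0.05 (5.26%, 36.8% and 26.3% of the members, against 21.5%, 15.5% and 19% of all).

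For 1 probe set each of Camk2a and Camkk2 the level went with the rat. After the mean of its group was subtracted from each array, Camk2a 1388187_at correlated between regions over the 15 rats at r = 0.84 (frontal cortex and hippocampus), 0.78 (frontal cortex and striatum) and 0.88 (hippocampus and striatum), and 11 of 15 rats were on the same side of their group mean in all 3 regions. Haloperidol rat 3 was the highest of its group in each region (11.86, 11.96 and 10.69), and so was vehicle rat 5 (11.66, 12.02 and 10.72). Camkk2 1368753_at correlated at 0.75, 0.79 and 0.75, with 10 of 15 rats on the same side, where the median over all probe sets was 6 rats. Haloperidol rat 4 had the lowest Camkk2 of its group in every region (6.58, 6.75 and 6.40), and risperidone rat 2 likewise (5.77, 6.39 and 6.36). The mean of the 3 correlations was 0.83 for Camk2a and 0.76 for Camkk2, at the 98.5 and 97.4 percentiles of all probe sets tested, whose median was 0.24. It was lower for the other Camk2a probe sets, at 0.57, 0.51 and 0.40 for 1381637_at, 1368935_at and 1389824_at, with 8, 7 and 4 rats on the same side. It was 0.11 for Camkk2 1375025_at, 0.12 for Camk4 1369753_at, 0.18 for Prkcb 1370585_a_at, and -0.10 for Camk4 1369752_a_at.

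**Figure D5:**
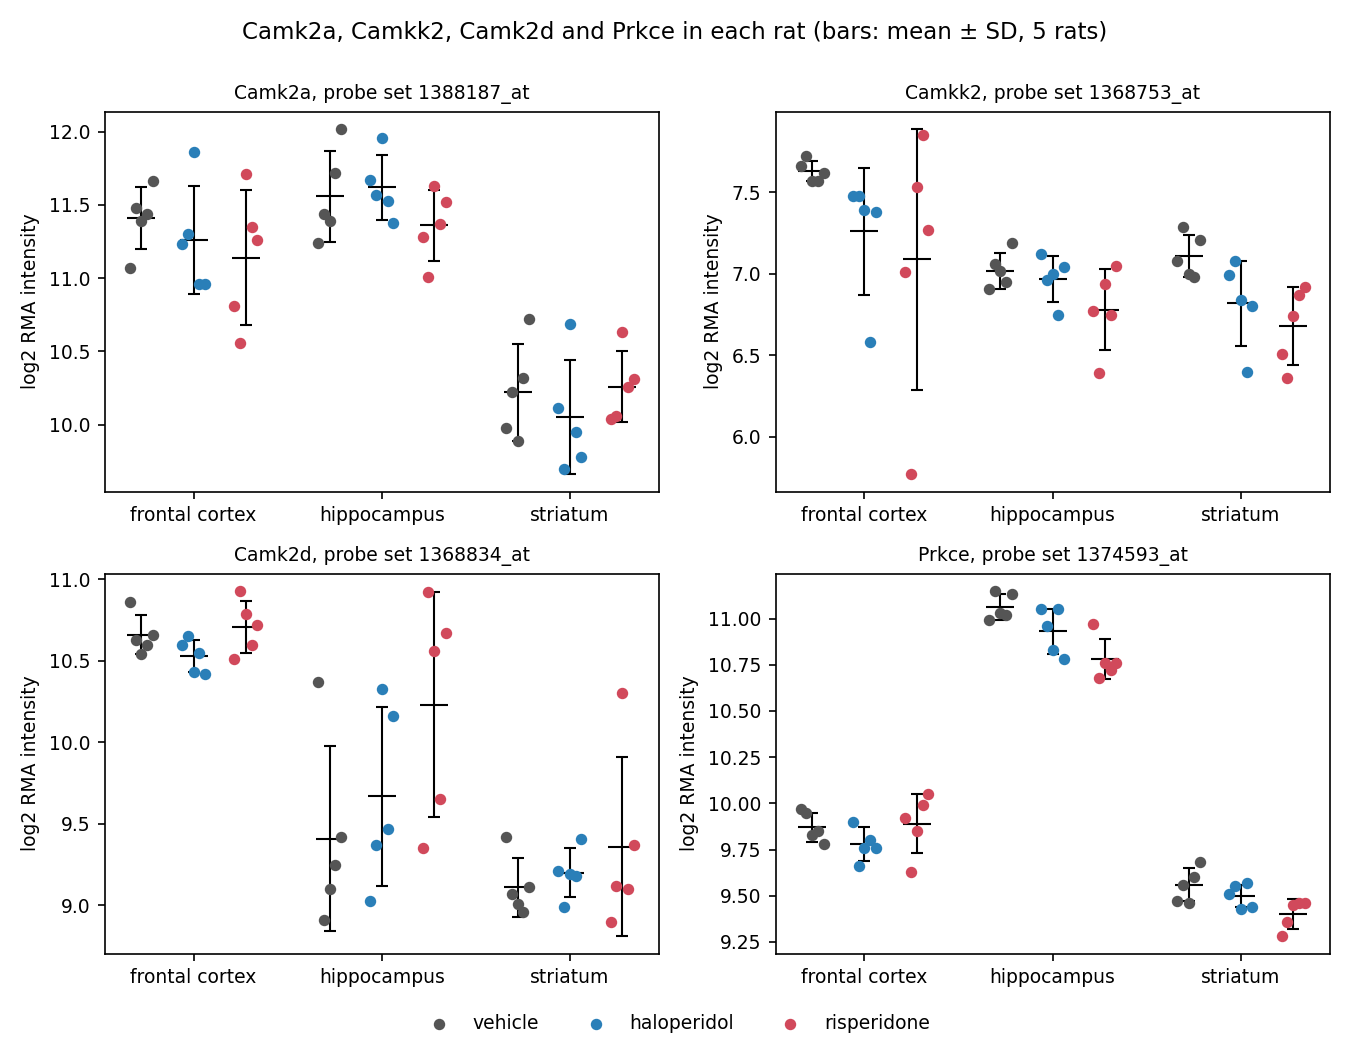
Log2 RMA intensity of Camk2a, Camkk2, Camk2d and Prkce in each rat, by region and treatment; points are rats 1 to 5 from left to right in each group, and bars are the mean ± SD. The same rats are high in Camk2a (haloperidol rat 3) or low in Camkk2 (haloperidol rat 4, risperidone rat 2) in all 3 regions, Camk2d is spread from 8.91 to 10.92 in hippocampus, and the 5 Prkce values after risperidone in hippocampus lie below the vehicle values.

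The genes whose levels ran closest to each member over the 45 arrays mostly followed the regions. Necab3, Elavl4 and Gabbr2 ran with Camk2g (r = 0.99 each), Pcdh19, Ksr1 and Sh3bp5 with Prkce (0.98 each), Tnfrsf21, Clstn2 and Tmem50b with Prkca (0.97 each), and Arl15, Ppfia4 and Wipf3 with Camk2b (0.97, 0.96 and 0.96). Fhod3, Cux2 and Gbe1 ran with Camk2d (0.95, 0.94 and 0.92), Pdp1, Kctd1 and Arpp19 with Camk4 (0.94, 0.93 and 0.92), Git1, Bap1 and Trak1 with Camk2a (0.93, 0.92 and 0.92), Cx3cl1, Homer1 and Lmtk2 with Prkcb (0.91, 0.88 and 0.83), and Apln, Igfbp7 and Csnk1g2 with Camkk2 (0.75, 0.74 and 0.72). After the group means were subtracted, the closest gene was Elavl2 for Camk2g (0.93), Fhod3 for Camk2d (0.92), Dst for Prkcb (0.86), Kcnip2 for Camk2b (0.84), Git1 for Camkk2 (0.79), Prkcz for Camk4 (0.77), Tsc2 for Camk2a (0.71), Arhgef25 for Prkce (0.71) and Ndufa5 for Prkca (0.69). The likeness was taken among 10248 genes, with 1 probe set each.

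Around the members, 7 lists of pathway genes held 95 tested genes. In frontal cortex after risperidone, 1 rose and 1 fell (2.11%, against 3.4% of all probe sets): Pcp4l1, related to the calmodulin-binding peptide Pcp4, was higher by 1.23 ± 0.33 (adjusted p = 0.0233), and Dgkh, a diacylglycerol kinase, was lower by -0.43 ± 0.13 (adjusted p = 0.0466). In striatum after risperidone, 2 rose and 3 fell (5.26%, against 3.65% of all). The rises were Ncald, a neuronal calcium sensor (0.44 ± 0.13), and Marcksl1, a PKC substrate related to MARCKS (0.37 ± 0.11). The falls were Ryr3, a ryanodine receptor of calcium stores (-0.67 ± 0.17), and 2 binding partners of CaMKII, the scaffold Lrrc7 (-0.40 ± 0.11) and the actinin Actn2 (-0.54 ± 0.16). In hippocampus after risperidone 1 fell (1.05%, against 0.113% of all), the ryanodine receptor Ryr2 (-0.45 ± 0.09, adjusted p = 0.0266). Between the drugs in frontal cortex 1 was called (1.05%, against 0.768% of all): Itpr2, an inositol trisphosphate receptor, was lower after risperidone (-0.40 ± 0.09, adjusted p = 0.0301). After haloperidol none of the 95 was called in any region, against 0.177% of all probe sets in frontal cortex, 0% in hippocampus and 0.339% in striatum. With the marker means as a covariate, the probe sets called over the whole array after risperidone dropped from 632 to 134 in frontal cortex and from 679 to 227 in striatum.

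By list, 11 other CaM kinases and CaMKII inhibitors and 8 other PKC and PKD kinases held no called gene in any comparison of treatments within a region. The lists of 10 calmodulin, calmodulin buffer and calcineurin genes, of 11 PKC substrates and partners and of 16 phospholipase C, Gq and diacylglycerol enzymes held 1 each, the 18 CaMKII and CaMK4 targets and partners held 2, and the 21 calcium store, pump and sensor genes held 4. Their median log2 differences after risperidone lay between -0.13 and 0.13 in all 3 regions, beside -0.02 to 0.01 over all probe sets.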

How the data were processed

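RNA from frontal cortex, hippocampus and striatum of each rat was hybridised to Affymetrix rat genome arrays, 1 array per region and rat. Per the labels and the study's methods, the authors normalized the arrays by RMA in R 2.7.2 and deposited linear intensities, 1 value per probe set and array; the set of arrays that RMA was run on is not stated in what was used here. RMA fits quantiles within the set it is run on, so array medians that differ between regions bear on region differences. Log2 was taken of the deposited intensity with no offset (range 6.32 to 28397.9), and 57 control probe sets were left out. Probe sets were named from the platform annotation, in which 20826 have 1 gene symbol, 436 several and 9780 none.

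Probe sets whose mean over the 45 arrays lay at or above the 40 percentile (log2 5.88) were tested with limma 3.58.1 in R 4.3.3: 1 mean for each of the 9 groups, the rat as a random block (duplicateCorrelation, consensus correlation 0.226), and Benjamini-Hochberg adjustment over all 18609 probe sets within each of 18 comparisons. Calls needed a 1.2-fold difference together with an adjusted p under 0.05. Intervals are 95% and errors on differences are standard errors from the fit. The fit was tested on simulated data. Figures were drawn with matplotlib 3.10.9.

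Groups and rat numbers came from the sample titles, and no column was left unmapped. The same number within a treatment is the same rat in all 3 regions: after group means were subtracted, arrays of 1 rat correlated at a median r of 0.35 between regions (0.01 to 0.67, 45 pairs), against -0.10 for different rats. Between treatments the number is only a name. The labels' rat numbers run in blocks by treatment, so anything that followed that order cannot be told apart from treatment. No arrays were duplicates.

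The member genes, the pathway and marker lists and the tests were chosen with earlier results of these data known. The named genes are the 9 members, the pathway genes called in a comparison of treatments, and the 3 genes most correlated with the first probe set of each member. Tbr1 and Neurod6, of the pyramidal marker list, were named outside that rule, after their values were seen. Alternatives were other filters, an offset of 16, quantile normalization once more, centring, array weights, no fold threshold, other blocks, each region alone, marker means as covariates, leaving out arrays high in those markers, and leaving out each rat. Scanner files, and samples of other species, were not used here.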

Additional observations from a re-analysis of the deposited data

Results flagged for a closer look

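In 10 of 180 groups of 5 rats (5.56%) 1 rat lay far from the other 4, by Dixon's test on the gap to its nearest neighbour as a share of the group's range; chance gives about 1 in 20 groups.

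Camk2d 1371263_a_at was high in vehicle rat 1 in hippocampus (7.67, against 6.20 to 6.61 in the other 4, gap share 0.721) and in striatum (6.51, against 6.23 to 6.26, 0.909), and in haloperidol rat 5 in striatum (6.70, against 6.10 to 6.25, 0.753). Camkk2 1368753_at was low in frontal cortex of haloperidol rat 4 (6.58, against 7.38 to 7.48, 0.887), and Camkk2 1375025_at was high in striatum of risperidone rat 2 (6.75, against 6.36 to 6.47, 0.714). Prkcb 1370585_a_at was low in striatum of risperidone rat 3 (11.99, against 12.33 to 12.40, 0.814), the array with the highest pyramidal neuron markers. Prkcb 1397189_at was low in striatum of haloperidol rat 1 (6.08, against 6.59 to 6.67, 0.863).

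Risperidone rat 1 stood out in hippocampus for Camk2b 1375575_at (12.18, against 11.98 to 12.01, 0.846) and Prkce 1374593_at (10.97, against 10.68 to 10.76, 0.718), high in both. Camk2a 1389824_at was high in striatum of haloperidol rat 4 (8.60, against 7.90 to 8.06, 0.777).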

How the results depend on the processing

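Under the alternatives 339 recomputed member counts stayed within 1.5 times the reported count and 33 did not. The 339 include the counts of 0 after haloperidol and between the drugs. At most 0.768% of all probe sets were called in those comparisons, so a count that stayed at 0 there says little. After risperidone the 2 calls in frontal cortex became 1 with array weights, 0 with the marker covariate, 0 without the arrays high in markers, 1 with each region on its own arrays, and 0 to 3 when 1 rat was left out. The calls over the whole array moved as well, from 632 to 705, 134, 475, 372 and 325 to 800 in that order. The 2 calls in striatum became 1, 0, 1 and 0 under the same alternatives and 0 to 2 without 1 rat, and those of the whole array went from 679 to 319, 227, 343, 90 and 279 to 1237. The 0 calls in hippocampus became 1 with a 60th percentile filter, 1 with an offset of 16, 5 with array weights, 1 without the arrays high in markers, and 0 to 3 without 1 rat. Beside them the whole array went from 21 calls to 26, 45, 991, 209 and 4 to 325. For the risperidone effect in hippocampus against frontal cortex, 0 became 1 with the stricter filter, 1 with quantile normalization once more, 1 with the offset, 2 with array weights, 1 without the arrays high in markers, and 0 to 1 without 1 rat. The whole array there went from 273 calls to 306, 216, 310, 1255, 317 and 18 to 346. For striatum against hippocampus the member count of 0 became 1 with array weights and 0 to 1 without 1 rat, and the whole array went from 337 calls to 485 and 71 to 703. The causes were not tested.

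Single results changed sign only where the reported difference was not called: Camk2a 1388187_at between hippocampus and frontal cortex (0.15 as deposited, -0.07 with quantile normalization, -0.11 centred), Camk2d 1368834_at between striatum and hippocampus (0.06 with quantile normalization), Camkk2 1368753_at between striatum and hippocampus (-0.05 over all treatments) and Camk2g 1369993_at in striatum with the marker covariate (-0.09 after haloperidol, -0.06 after risperidone). With array weights Camk2d 1368834_at in hippocampus after risperidone was called (0.91, adjusted p = 0.00993), and Prkcb 1370585_a_at in frontal cortex was under 1.2-fold (-0.23, adjusted p = 0.0148). Some region calls of the deposited scale also fell under 1.2-fold. With quantile normalization once more, Prkce 1374593_at between striatum and frontal cortex was -0.18, and Camk2b 1398251_a_at between striatum and hippocampus -0.20. Over all treatments, Camk4 1369752_a_at between striatum and frontal cortex was 0.23, and Prkcb 1370585_a_at between striatum and hippocampus 0.25.

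With the replicate block as a fixed term the member calls after risperidone were 2, 0 and 2 in frontal cortex, hippocampus and striatum, and with no replicate block again 2, 0 and 2. Neither fit changed a member count in any comparison. Arrays give no depth: 5 rats per group and the spread of Camk2d and Camkk2 between rats limit what could be called.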
